A study of Mus musculus with 8 samples.

Results

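A set of 10 marker genes of the fibroblasts that line the knee was taken by gene symbol from a table of 20681 genes. Of these, 5 mark the lining layer (Prg4, Clic5, Tspan15, Creb5 and Pdpn) and 5 mark the sublining and the progenitor-like fibroblasts within it (Thy1, Dpp4, Pi16, Cd34 and Fap). All 10 were present once in the table and all 10 passed the filter on low values. RNA came from knee joints of mice, and the 8 libraries carry the label control (4) or knockout (4). Which cells or tissues of the joint the reads of a marker came from was not tested. The targeted gene, Loxl2, encodes an enzyme that crosslinks collagen. The labels describe all the mice as Acan-Cre;Loxl2 fl/fl carriers, so that Loxl2 is to be deleted where the aggrecan gene is active, as in cartilage, and not in every cell of the joint. The control joints are called vehicle-treated and their library names carry LOXL2wt, the names of the others carry LOXL2ko, and the agent those others received is not given in the sources used here. All 8 library names also carry DMM, an abbreviation usually used for surgery that destabilises the medial meniscus. Age, time after injury and whether each library was 1 animal are not given in the sources used here, so p-values measure the spread between these libraries.

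The synovium is the membrane that encloses the joint space. Its lining layer, in contact with the fluid, holds fibroblasts that secrete lubricin and hyaluronan together with macrophages. The sublining beneath it holds fibroblasts around vessels, fat and nerves, among them progenitor-like cells that carry CD34, DPP4 and PI16. FAP marks fibroblasts that are remodelling matrix, and in joint disease FAP-bearing fibroblasts are known from both layers.

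Creb5 encodes a transcription factor of the CREB/ATF family and is known as a regulator of Prg4 in articular cartilage. Factors of that family bind the cyclic AMP response element (CRE) and the related AP-1 element, so the sequence before the start of the lining genes is shown here for those 2 elements. Of the 10 markers, 7 have an entry in the RefSeq promoter table of build GRCm38.p6, which has the coordinates of mm10, and Prg4, Thy1 and Fap have none. Each line gives the 250 bases before an annotated start of a lining marker, 5′ to 3′, with capitals marking TGACGTCA (CRE), TGANTCA (AP-1) or GGGCGG (GC box) on either strand.
Creb5, first start, chr6:53287053-53287302, plus strand: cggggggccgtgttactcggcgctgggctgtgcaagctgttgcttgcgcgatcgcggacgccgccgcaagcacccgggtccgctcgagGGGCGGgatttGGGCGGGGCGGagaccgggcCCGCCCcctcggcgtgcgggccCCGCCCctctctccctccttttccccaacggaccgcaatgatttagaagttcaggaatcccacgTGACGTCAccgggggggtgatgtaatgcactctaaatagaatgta
Creb5, second start, chr6:53573124-53573373, plus strand: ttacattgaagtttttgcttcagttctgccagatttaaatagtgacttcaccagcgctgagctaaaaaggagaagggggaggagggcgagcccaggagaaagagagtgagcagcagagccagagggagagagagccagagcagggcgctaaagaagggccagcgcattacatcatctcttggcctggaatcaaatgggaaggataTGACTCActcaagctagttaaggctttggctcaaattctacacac
Tspan15, chr10:62231219-62231468, minus strand: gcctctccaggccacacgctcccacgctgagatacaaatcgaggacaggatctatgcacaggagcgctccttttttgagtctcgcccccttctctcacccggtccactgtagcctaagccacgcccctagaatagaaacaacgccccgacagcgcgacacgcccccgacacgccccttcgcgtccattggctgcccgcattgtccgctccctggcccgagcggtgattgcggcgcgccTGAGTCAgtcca
Clic5, chr17:44188322-44188571, plus strand: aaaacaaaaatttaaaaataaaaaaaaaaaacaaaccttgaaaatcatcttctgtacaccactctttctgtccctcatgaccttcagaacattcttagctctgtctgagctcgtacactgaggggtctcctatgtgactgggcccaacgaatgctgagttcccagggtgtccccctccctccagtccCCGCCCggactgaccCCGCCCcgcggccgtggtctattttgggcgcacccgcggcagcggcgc
Pdpn, chr4:143299565-143299814, minus strand: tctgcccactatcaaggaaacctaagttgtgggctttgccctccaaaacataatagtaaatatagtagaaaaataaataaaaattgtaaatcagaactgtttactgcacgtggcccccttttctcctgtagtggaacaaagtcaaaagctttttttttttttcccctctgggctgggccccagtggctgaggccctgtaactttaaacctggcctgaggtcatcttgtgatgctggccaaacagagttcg
The first start of Creb5 held a CRE whose first base lay 45 bases before the start and 5 GC boxes, a pair of which share a base. Its second start held an AP-1 element, also 45 bases before the start. Tspan15 held an AP-1 element 12 bases before the start, Clic5 held 2 GC boxes, and Pdpn held none of the 3 motifs. By the GENCODE spans given below, the Tspan15 and Creb5 windows lie partly or wholly inside the gene. The AP-1 element of Tspan15 lies inside its GENCODE span. The windows of Dpp4, Pi16 and Cd34, not shown, also held none of the 3 motifs. Over the 32851 windows of the same length in the table, 1.55% held the CRE, 6.75% the AP-1 element and 32.7% the GC box. A match describes the letters only, and no binding was measured.

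On mm10, with the GENCODE M21 annotation, the other markers lie at chr17:44188584-44280172 (Clic5, plus strand), chr10:62185396-62231251 (Tspan15, minus), chr6:53287270-53700376 (Creb5, plus), chr4:143267431-143299564 (Pdpn, minus), chr9:44043384-44048579 (Thy1, plus), chr2:62330073-62412231 (Dpp4, minus), chr17:29317680-29330593 (Pi16, plus), chr1:194938819-194961279 (Cd34, plus) and chr2:62500943-62574075 (Fap, minus). Dpp4, Pi16, Cd34 and Loxl2, like Prg4 below, overlap a gene on the opposite strand, so their reads may include reads of that gene. Tspan15, Creb5 and Loxl2 overlap a gene on the same strand.

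The level of Loxl2 was higher in the libraries labelled knockout, so each group is named here only by the label it carries. RNA of the knee joint cannot show whether Loxl2 was deleted only where the aggrecan gene is active. The level therefore does not decide whether the labels hold. Levels are normalised reads, the read count of a gene divided by the size factor of its library. Control replicates 1 to 4 held 282, 349, 1135 and 311 normalised reads of Loxl2, and knockout replicates 1 to 4 held 893, 1468, 960 and 1518. The difference on the log2 scale, after adding 1, was 1.44 ± 0.40 (SE, limma adjusted p = 0.0294, exact permutation p = 0.0857), and without control replicate 3 it was 1.91 (adjusted p = 0.0019). It was not called by edgeR or DESeq2, with the replicate block, or in 5 of the 8 fits without 1 library. Control replicate 3 stood apart in fibroblast genes as well. The mean log2 value of 11 general fibroblast genes was 12.24 there, 10.93 to 11.36 in the other control libraries and 12.27 to 13.26 in those labelled knockout. Over all 14949 genes tested, 23.2% passed an adjusted p of 0.05 in limma, the threshold for a call. Of all genes, 11.6% were called higher and 11.6% lower under the knockout label, and the median difference was 0.00. The libraries held 13991000 to 17411617 reads. The summed values of 10 skeletal muscle genes were 2119600 to 2244910 in the control libraries and 989699 to 1430140 in the others, and those of 7 macrophage genes were 1357 to 3161 and 4839 to 6608. What part these played in the results below was not tested.

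Of the 10 markers, 1 rose in the libraries labelled knockout, Fap, against 11.6% of all genes tested that were called higher. The others ranged from a log2 difference of -0.24 for Clic5 to 1.06 for Pdpn, with 9 of the 10 above 0 and a median of 0.62, beside 0.00 for all genes tested. At an unadjusted limma p under 0.05 there were 5, namely Fap, Prg4, Pdpn, Thy1 and Cd34, while 19.2% of all genes were higher at that level. Without control replicate 3, 4 markers were called, namely Fap, Prg4, Pdpn and Thy1, beside 12.2% of all genes called higher, and those 4 had groups that did not overlap, beside 16.4% of all genes. The count was 2 without knockout replicate 1, where Cd34 joined Fap (8.11% of all genes higher), and 3 without knockout replicate 3, where Prg4 and Creb5 joined it (12.4%). DESeq2 called 3, with 14.3% of all genes higher, and edgeR called 1, with 11.3%. A pseudocount of 5 gave 2 (11.9%), scaling on the genes left after removing muscle, blood and the highest genes gave 2 (18.5%), and the replicate block gave 1 (7.47%). With all libraries, no marker had groups that did not overlap, against 11.7% of all genes that lay wholly higher and 13.4% wholly lower. This number was 1 under that scaling (19.1% of all genes wholly higher), 1 without knockout replicate 1 (14.3%) and 2 without knockout replicate 3 (17.2%). In bulk RNA, a change in the number of cells of a type and a change in RNA per cell cannot be told apart.

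**Figure D1:**
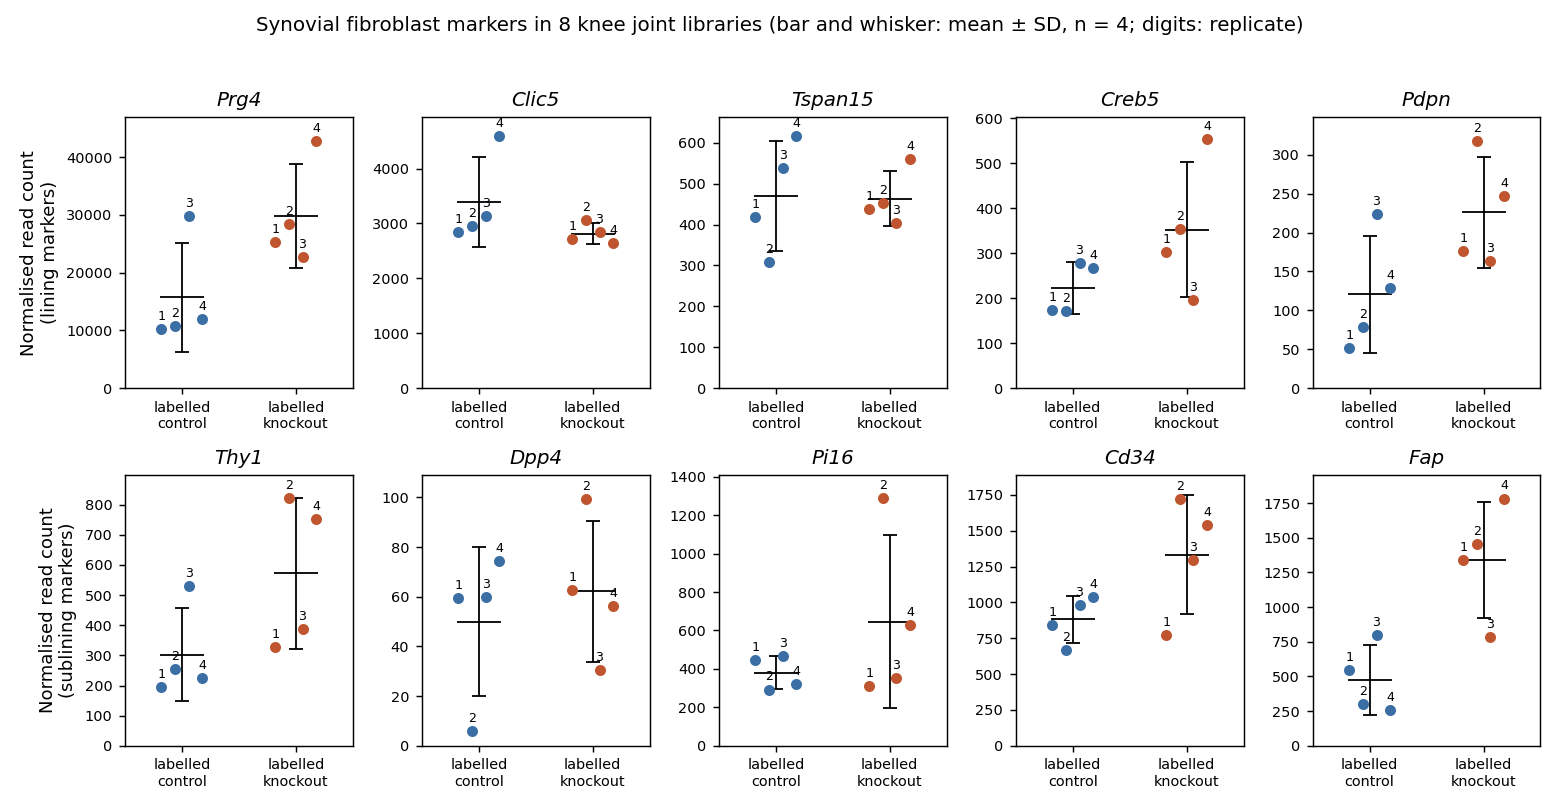
Normalised read counts of the 10 markers, 1 point per library with its replicate number, for the libraries labelled control (blue, left) and labelled knockout (orange, right). Horizontal bars and whiskers are mean ± SD (n = 4), each vertical axis starts at 0, and control replicate 3 lies highest of the control libraries for 6 of the 10 markers.

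Prg4, which encodes lubricin, the lubricating glycoprotein secreted by lining cells and by the surface of cartilage, was by far the most abundant marker. Control replicates 1 to 4 held 10288, 10783, 29856 and 12028 normalised reads of it, and knockout replicates 1 to 4 held 25230, 28382, 22669 and 42836. The control libraries other than replicate 3 lay below every library labelled knockout, while replicate 3 lay above 3 of those 4. Mean levels were 15739 ± 9440 and 29779 ± 9013 (SD, n = 4). The log2 difference was 1.03 ± 0.34 (SE, limma adjusted p = 0.0503, exact permutation p = 0.114), so it just missed the threshold. It crossed it without control replicate 3 (1.39, limma adjusted p = 0.0041) and, with all libraries, at a pseudocount of 5 (1.03, adjusted p = 0.0495). It also did so without knockout replicate 3 (1.15, adjusted p = 0.0481) and with libraries scaled on the genes left after removing muscle, blood and the highest genes (1.19, adjusted p = 0.0338). With edgeR and DESeq2 it was 0.93 (adjusted p = 0.0861 and 0.142), and with the replicate block it was 1.03 (limma adjusted p = 0.0839). Among the fits that left out a library, the lowest value was 0.84, without knockout replicate 4 (limma adjusted p = 0.134). Cartilage also makes lubricin, and the 8 chondrocyte genes in the table, Col2a1 and Col11a2 the most abundant, summed to 1167 to 7466 in the control libraries and 2017 to 3683 in the others. In control replicate 3, the control library of highest Prg4, that sum was 1465 and Matn3 was at 0. These genes were not chosen to mark the surface of cartilage, and the part of chondrocytes in the Prg4 levels was not tested. Prg4 lies on chromosome 1 (150449412 to 150466165, minus strand) and overlaps Tpr on the opposite strand, and the use of strand in counting is not given in the sources used here.

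Pdpn encodes podoplanin, a membrane glycoprotein of lining fibroblasts that binds the platelet receptor CLEC-2. The control libraries, in replicate order, held 51.9, 78.7, 223 and 128 reads, and those labelled knockout held 177, 318, 163 and 247. Again control replicate 3 reached into the range of the libraries labelled knockout and the others lay below it. Between the groups it differed by a log2 value of 1.06 ± 0.40 (SE, limma adjusted p = 0.0832, exact permutation p = 0.0857), and without control replicate 3 it was 1.42 (limma adjusted p = 0.0167). Leaving out control replicate 1 gave the lowest value, 0.73 (limma adjusted p = 0.170). Lymphatic endothelium and osteocytes also carry podoplanin. The summed values of 5 lymphatic genes, led by Lyve1 and Flt4, were 308 to 661 over the control libraries and 590 to 878 over the others, with 0 of the 5 called by limma, 1 at an unadjusted p under 0.05. Limma called 1 without control replicate 4, and edgeR and DESeq2 called 0. Those of 7 osteoblast and osteocyte genes, led by Ibsp and Bglap, were 526 to 5347 and 4057 to 9682, with 2 called higher by limma. That count was 5 without control replicate 1, 1 without control replicate 3 or knockout replicate 2, and 0 without any other single library and with edgeR and DESeq2. The part of either cell type was not tested.

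Of Creb5, the transcription factor gene, control replicates 1 to 4 held 174, 171, 279 and 267 reads and knockout replicates 1 to 4 held 302, 354, 197 and 555. Knockout replicate 3 lay among the control values and the other 3 above them. On the log2 scale the difference was 0.60 ± 0.29 (SE, limma adjusted p = 0.165, exact permutation p = 0.143), and it was called without knockout replicate 3 (0.84, limma adjusted p = 0.0406). Leaving out knockout replicate 4 gave the lowest value, 0.35 (limma adjusted p = 0.385).

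The remaining lining markers differed little between the groups. Clic5 belongs to the chloride intracellular channel family, and its product links membranes to actin through ezrin and radixin. Its reads numbered 2845, 2961, 3128 and 4599 in the control libraries, in replicate order, against 2712, 3063, 2847 and 2647 in those labelled knockout. Control replicate 4 stood above the other 7 libraries, which lay close together. Its log2 difference was -0.24 ± 0.14 (SE, 95% interval -0.56 to 0.08, limma adjusted p = 0.253). Tspan15, a tetraspanin that guides the protease ADAM10 to its substrates, had 417, 308, 538 and 616 reads in control replicates 1 to 4, against 438, 452, 405 and 561 in knockout replicates 1 to 4. The ranges overlapped fully, with a log2 difference of 0.02 ± 0.20 (SE, 95% interval -0.43 to 0.47, limma adjusted p = 0.956), the sign of which changed with edgeR (-0.0079) and DESeq2 (-0.01) and without control replicate 1, control replicate 2 or knockout replicate 4.

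Fap, which encodes fibroblast activation protein, a membrane serine peptidase, was the marker of largest change. Control replicates 1 to 4 held 545, 300, 797 and 257 reads of Fap, and knockout replicates 1 to 4 held 1337, 1457, 785 and 1783. The groups overlapped only in that control replicate 3 lay just above knockout replicate 3. Mean levels were 475 ± 250 and 1341 ± 416 (SD, n = 4). Fap rose by a log2 value of 1.58 ± 0.36 (SE, limma adjusted p = 0.0149, exact permutation p = 0.0571). Fap stayed called in all 8 fits that left out a library (1.34 to 1.88, limma adjusted p 0.0054 to 0.0479) and under the 8 alternatives with all libraries (adjusted p 0.00018 to 0.0483).

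Thy1, the gene of the surface protein CD90 that marks the sublining, had 196, 255, 532 and 226 reads in control replicates 1 to 4, against 329, 822, 387 and 752 in knockout replicates 1 to 4. Control replicate 3 lay above knockout replicates 1 and 3, and the other control libraries lay below all 4. Thy1 differed by a log2 value of 0.93 ± 0.37 (SE, limma adjusted p = 0.0933, exact permutation p = 0.114). It was called without control replicate 3 (1.24, limma adjusted p = 0.0236) and by DESeq2 (0.93, adjusted p = 0.0390). Among the fits that left out a library, the lowest value was 0.71, without knockout replicate 2 (limma adjusted p = 0.214). T cells also carry CD90, and the 7 T cell genes, Cd3e and Cd247 the most abundant, summed to only 73.8 to 161 over the control libraries and 51.9 to 201 over the others. Of these 7, 3 were tested and 1, Cd3e, was called lower, a call lost with libraries scaled without muscle, blood and the highest genes, and on leaving out any of 6 libraries, all but control replicate 3 and knockout replicate 1. In the list, Cd3d, Cd3g and Cd8a were at 0 in at least 1 library. The part of T cells was not tested.

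Cd34 encodes a sialomucin carried by sublining fibroblasts, by endothelium and by blood progenitors. The control libraries, in replicate order, held 841, 667, 979 and 1041 reads of it, and those labelled knockout held 772, 1722, 1298 and 1541. Knockout replicate 1 lay among the control libraries and the other 3 lay above them all. The log2 difference was 0.55 ± 0.24 (SE, limma adjusted p = 0.115, exact permutation p = 0.143). It was called without knockout replicate 1 (0.80, limma adjusted p = 0.0193) and by DESeq2 (0.60, adjusted p = 0.0419). Leaving out knockout replicate 2 gave the lowest value, 0.41 (limma adjusted p = 0.257). Of 10 endothelial genes, led by Pecam1 and Cdh5, 0 were called by limma and 0 had an unadjusted p under 0.05, also with edgeR and DESeq2. Without knockout replicate 3, limma called 3 of them lower. They summed to 6222 to 7765 over the control libraries and 4894 to 9861 over the others, with the lowest sum in knockout replicate 1. The 5 blood progenitor genes, led by Mpo, summed to 133 to 759 and 73.1 to 299, and the part of either cell type in the Cd34 level was not tested.

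The progenitor markers Pi16 and Dpp4 varied more between libraries than between groups. Pi16 had 446, 293, 466 and 320 reads in control replicates 1 to 4, against 312, 1288, 352 and 629 in knockout replicates 1 to 4. Knockout replicates 2 and 4 lay above all control libraries, and replicates 1 and 3 lay within their range. Its log2 difference was 0.55 ± 0.39 (SE, limma adjusted p = 0.334), and without knockout replicate 2 it was 0.14. Dpp4, a surface peptidase that trims chemokines and incretins, was the least abundant marker. In replicate order, the control libraries held 59.5, 6.06, 59.8 and 74.5 reads of it and those labelled knockout held 62.8, 99.2, 30.4 and 56.3. Control replicate 2 held only 6 recovered reads of Dpp4 and set the direction of the log2 difference, which was 0.64 ± 0.70 (SE, limma adjusted p = 0.537) and -0.16 without that library.

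**Figure D2:**
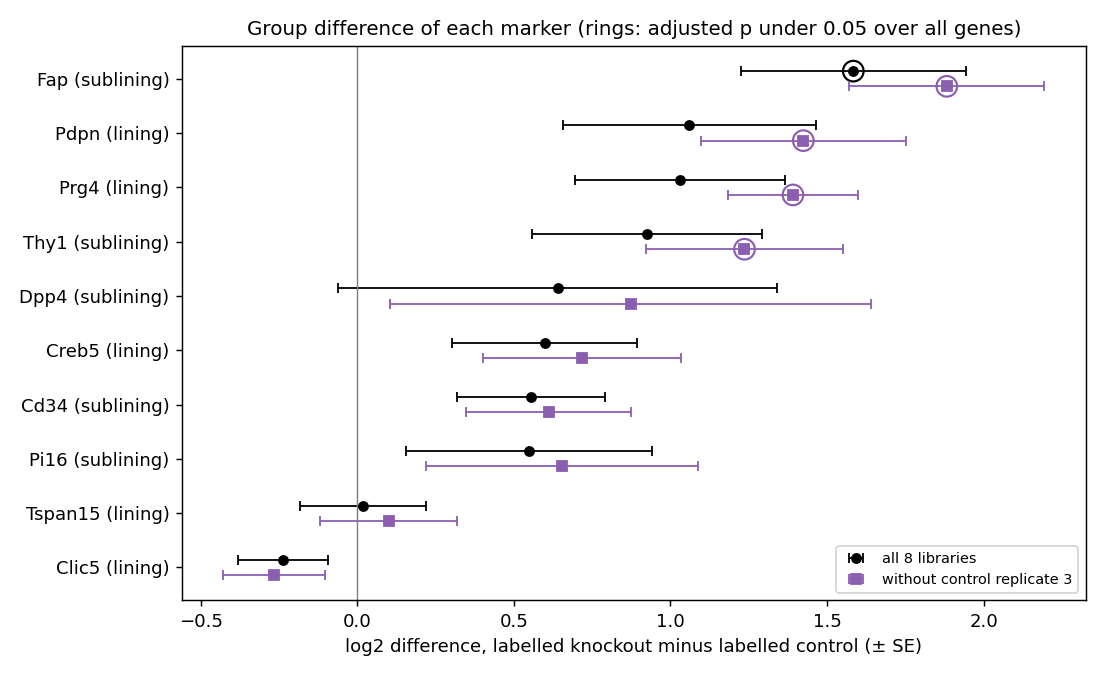
The log2 difference of each marker, labelled knockout minus labelled control, with its standard error, over all 8 libraries (black circles) and without control replicate 3 (purple squares). Rings mark an adjusted p under 0.05 over all genes, which Fap alone reached with all libraries (1.58) and Fap, Pdpn, Prg4 and Thy1 reached without that library.

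Whether the lining and the sublining moved apart was asked of their main markers, Prg4 and Thy1. Subtracting the log2 level of Prg4 from that of Thy1 gave -5.71, -5.39, -5.81 and -5.73 for the control libraries, in replicate order, and -6.26, -5.11, -5.87 and -5.83 for those labelled knockout. Knockout replicate 2 held the highest value of all 8 libraries, and the other 3 labelled knockout lay below every control library. The difference between the group means, -0.11, was smaller than the spread within them (SD 0.18 and 0.48, exact permutation p = 0.743), and it was 0.058 without knockout replicate 1. Without knockout replicate 2 it was -0.32 (exact permutation p = 0.0571) and the groups did not overlap, so both the overlap and the sign rest on single libraries. The medians of the lining and sublining lists were 0.60 and 0.64.

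Divided by exon length, the level of Prg4 was 3677 ± 2206 normalised reads per kilobase over the control libraries and 6958 ± 2106 over the others (SD, n = 4). Clic5 followed, at 385 ± 93.3 and 321 ± 20.9. In the control group Cd34 (121), Thy1 (101), Fap (83.9), Pdpn (66.3), Pi16 (59.9) and Tspan15 (57.4) came next, and each of these overlapped its neighbour in the order. Creb5 (8.90) and Dpp4 (7.91) lay lowest and overlapped each other. In the libraries labelled knockout Fap came next after Clic5, at 237 ± 73.4 per kilobase, and it overlapped Clic5, Thy1 (191 ± 83.6) and Cd34 (183 ± 56.6).

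The markers did not vary in one pattern across the libraries. Among the control libraries replicate 3 was highest for 6 of the 10 and replicate 4 for the other 4, namely Clic5, Tspan15, Dpp4 and Cd34. Among those labelled knockout, replicate 2 was highest for 6 and replicate 4 for 4, and replicate 3 was lowest for 6. As a measure of likeness, the root mean square difference between log2 profiles centred on their means was taken over the 8 libraries. It is not scaled to the size of the variation. Genes that vary little therefore come out close whatever their pattern, and a gene that varies widely, such as Pi16, comes out farther from others. Clic5 and Tspan15 were the closest pair of markers (0.28), followed by Prg4 and Thy1 (0.32) and by Pdpn and Thy1 (0.35). Among 11646 genes with a mean of at least 50, the closest to Prg4 were C1qtnf1 (0.13), Cd44 (0.14), which encodes a hyaluronan receptor, and Msx1 (0.16), a homeobox gene. The closest to Thy1 were Col18a1 (0.11), a basement membrane collagen gene, Igfbp7 (0.15) and Sulf2 (0.15). No gene came as close to Pi16, for which Il33 (0.32), C4b (0.33) and Scn7a (0.33) were nearest.

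Other genes known from the same layers were taken as further lists. Of 8 further lining genes, 2 rose, with a list median of 0.68, beside 11.6% of all genes called higher. The count was 1 with edgeR and 1 on leaving out any of 5 libraries (control replicates 2 and 4, knockout replicates 1, 2 and 4), and 3 without knockout replicate 3. Htra4, a secreted serine protease gene, rose from 604 ± 185 to 1401 ± 561.7 (SD, n = 4), by 1.18 ± 0.28 (SE, limma adjusted p = 0.0164), and its groups did not overlap. Vcam1, an adhesion molecule gene, rose by 1.11 ± 0.35 (SE, limma adjusted p = 0.0451), a call lost with edgeR and without any of 6 single libraries, namely control replicates 2, 3 and 4 and knockout replicates 1, 2 and 4 (limma adjusted p up to 0.117). Mmp3, of the collagen and proteoglycan cleaving enzyme stromelysin, differed by 1.62 ± 0.60 (limma adjusted p = 0.0753), and Cd55, a complement regulator on lining cells, by -0.20 ± 0.15 (0.363). Of 8 further sublining and progenitor genes, limma called 0, with 3 at an unadjusted p under 0.05, while edgeR called 1 and DESeq2 called 2. Their median was 0.70, and limma called 3 of the 8 without control replicate 3. On leaving out knockout replicate 3 it called 2, and on leaving out knockout replicate 1 it called 1. It also called 2 with libraries scaled on the genes left after removing muscle, blood and the highest genes. Values ran from 0.02 for Cxcl12, the gene of a perivascular chemokine, to 1.18 for Col14a1 (limma adjusted p = 0.0615).

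**Figure D3:**
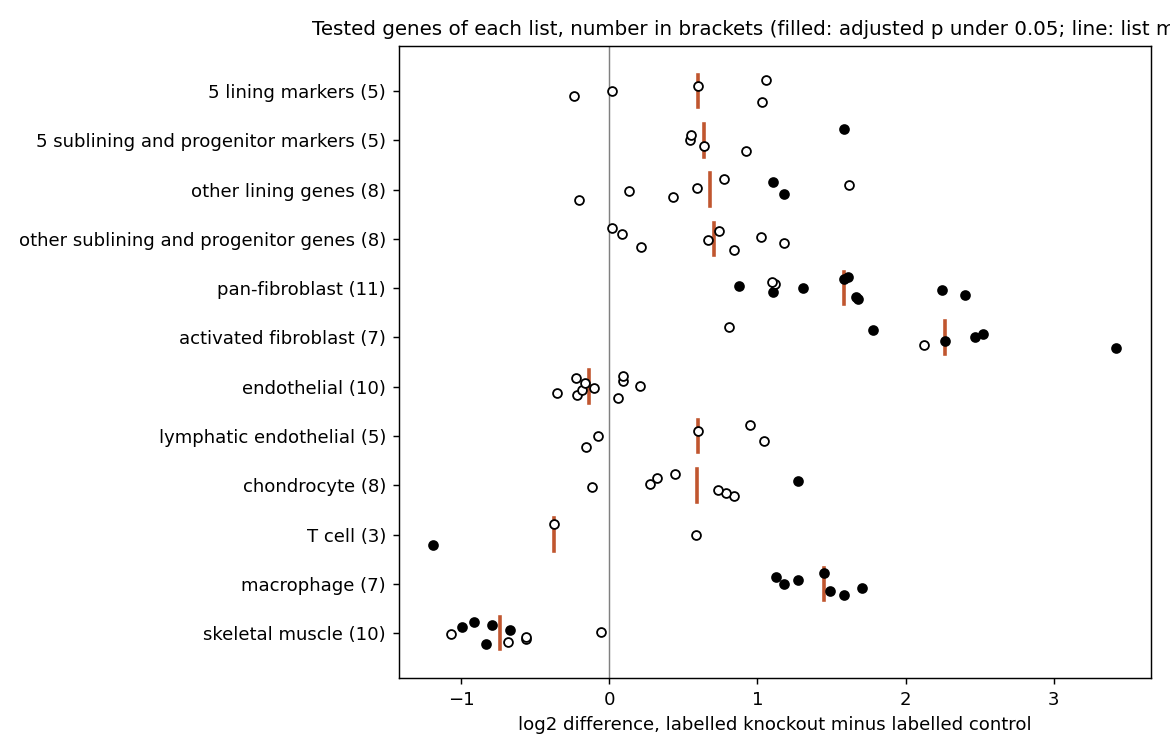
The log2 difference of each tested gene, labelled knockout minus labelled control, by list, with the number of tested genes in brackets. Filled points have an adjusted p under 0.05 over all genes and vertical lines are list medians, which were 0.60 and 0.64 for the lining and sublining markers, 1.59 for general fibroblast genes and 2.26 for genes of activated fibroblasts.

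Genes that fibroblasts share regardless of layer differed by more. Of 12 general fibroblast genes 11 were tested, 9 were called higher and the median was 1.59, beside 11.6% of all genes called higher. The count fell to 5 without control replicate 2 or 4 and to 4 without knockout replicate 4. It was 6 without knockout replicate 1 or 2, and 7 with the replicate block. Among the control libraries, Col1a1 (58034) and Col1a2 (47992) were highest in replicate 1, as was the sum of osteoblast and osteocyte genes (5347). The other tested genes of the list were highest in control replicate 3. The part of bone cells in these levels was not tested. Pdgfrb and Pdgfra, receptors for platelet-derived growth factor, rose by 0.88 ± 0.16 and 1.31 ± 0.27 (SE, limma adjusted p = 0.0077 and 0.0105), and Serpinf1 rose by 1.61 ± 0.32 (0.0097). Of 7 genes of activated fibroblasts 5 rose, with a median of 2.26. This count was 3 with the replicate block and 3 without control replicate 2 or knockout replicate 4. Postn, the periostin gene, Adam12, a metalloprotease gene, and Timp1, an inhibitor of metalloproteinases, rose by 3.42 ± 0.40, 2.47 ± 0.34 and 2.52 ± 0.54 (SE, limma adjusted p = 0.0040, 0.0040 and 0.0121). The calls of these 6 genes were kept in all 8 fits that left out a library.

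Set against the mean log2 level of the 11 general fibroblast genes in the same library, 9 of the 10 markers were lower in the libraries labelled knockout. That mean was itself 1.52 higher there, so any gene with a log2 difference under 1.52 comes out lower. The median difference of all genes tested was 0.00, so the 9 of 10 is no trait of the markers. For Clic5 the relative log2 level averaged 0.32 ± 0.77 over the control libraries and -1.43 ± 0.46 over those labelled knockout (SD, n = 4). For Tspan15 it ranged over -3.16 to -1.70 and -4.33 to -3.60, and for Creb5 -4.11 to -2.90 and -4.68 to -4.14, so that for these 3 lining markers the groups did not overlap. Of all genes tested, 48.3% lay wholly lower by the same measure, with the reference genes themselves higher, so the 3 of 10 markers are below that share. For Prg4 the relative level was 1.96 to 2.63 and 1.64 to 2.20, and for Thy1 -3.74 to -2.93 and -4.52 to -3.47, with overlap. Fap was the exception, at -2.63 ± 0.28 and -2.56 ± 0.10 (SD, n = 4), within a control range of -2.96 to -2.27. No test was made of these relative levels.

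**Figure D4:**
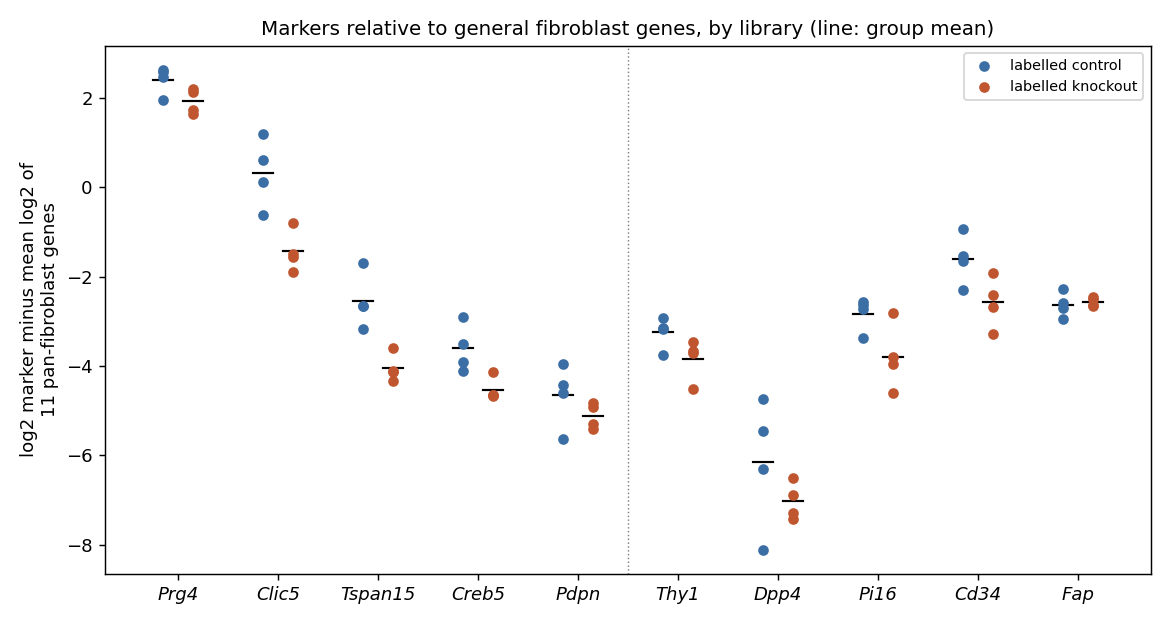
Log2 level of each marker minus the mean log2 level of 11 general fibroblast genes in the same library, for the 4 libraries labelled control (blue) and the 4 labelled knockout (orange), with group means as short lines. Clic5, Tspan15 and Creb5 have groups that do not overlap, and the values of Fap lie between -2.96 and -2.27 in all 8 libraries.

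Relatives and partners of the marker proteins were compared as well. Of 17 such genes 6 were called higher and 3 lower, with a median of 0.27, beside 11.6% of all genes in each direction. The counts were 7 and 1 with libraries scaled on the genes left after removing muscle, blood and the highest genes, and 4 and 1 with the replicate block. Leaving out a library gave 3 to 7 higher and 1 to 4 lower. The lower count was 1 when replicate 1 or 4 of either group was left out, and the higher count was 3 when control replicate 2, control replicate 4 or knockout replicate 2 was. Clic1, a paralogue of Clic5, rose from 394 ± 96.7 to 713 ± 136 (SD, n = 4), by 0.86 ± 0.18 (SE, limma adjusted p = 0.0115). Msn, the gene of moesin, which ties membrane proteins to actin, rose by 0.76 ± 0.17 (limma adjusted p = 0.0137). Dpp8, a cytosolic relative of Dpp4 and Fap, fell by 0.46 on the log2 scale (SE 0.09, limma adjusted p = 0.0078). With libraries scaled on the genes left after removing muscle, blood and the highest genes, the median of all genes moved by 0.15 and these 3 genes kept their direction and their call. Adam10, the partner of Tspan15, rose by 0.40 ± 0.09 (limma adjusted p = 0.0149), and its call under the alternatives was not looked at.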

How the data were processed

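Per the labels, the series' design text and the submitters' processing notes, poly-A RNA was sequenced, reads were aligned to mm10 with HISAT2, counted per gene with featureCounts, and normalised and filtered with DESeq2. Versions, the annotation and the strand setting are not given in the sources used here. The deposited signal is 1 value per gene and library. In all 8 columns 100% of the deposited values were whole multiples (tolerance 0.01) of the smallest positive one, from 0.855 to 1.10. In control replicate 2 and knockout replicate 1 that step was 1.01 and 0.997, near 1. Deposited values there were still not whole numbers, as for Prg4 (10782.6 and 25229.9). Multiples of the step were taken as reads for edgeR 4.0.16 and DESeq2 1.42.0.

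A gene entered the tests where 4 or more libraries reached 10, and was fitted on log2(value + 1) with limma 3.58.1 (eBayes with trend, 1 term for group) and p was adjusted by Benjamini-Hochberg over all 14949, calling at 0.05. Fold changes of low genes are understated by the pseudocount. Exact two-sided permutation tests over the 70 splits (smallest p 0.0286) were made for 12 single values, unadjusted. The members and lists were chosen with earlier results of these data known. Named were all markers, Loxl2, up to 3 called genes of smallest p per fibroblast or partner list, the 3 genes most like Prg4, Thy1 and Pi16, and the most abundant genes of other cell types; Mmp3, Cd55, Cxcl12, Col14a1 and Adam10 were added after their values were seen. Within the groups, all 12 pairs of libraries differed beyond counting error (chi-square per degree of freedom 19.3 to 49.8). Coordinates and exon lengths are from GENCODE M21 (mm10), which held 99.2% of the symbols. The tests were tested on simulated counts first.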

Additional observations from a re-analysis of the deposited data

Results flagged for a closer look

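For 3 of 24 groups of 4 libraries checked, 1 library stood so far from the rest that its gap was above the 95% critical value of Dixon's test, and chance gives about 1 in 20. In control replicate 3 the normalised read count of Prg4 was 29856, with the next control library at 12028 and a gap of 0.911 of the range. In the same library Loxl2 was at 1135, with the next at 349 and a gap of 0.921. In control replicate 4 Clic5 was at 4599, with the next at 3128 and a gap of 0.838.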

How the results depend on the processing

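The count of markers called, 1 with all libraries, was 2 at a pseudocount of 5, 2 with libraries scaled without muscle, blood and the highest genes, 3 with DESeq2, and 1 to 4 when a library was left out. The cause was not tested. The count of markers whose groups did not overlap, 0, was 1 under that scaling (19.1% of all genes wholly higher, against 11.7%) and 0 to 4 when a library was left out (16.4% of all genes where it was 4). Of all genes, 3461 were called, and 1740 to 3832 when a library was left out. Under that scaling 78.4% of the calls were higher (2772 of 3535), against 1732 of 3461 as deposited. Loxl2 lost its call with edgeR (1.23), DESeq2 (1.23) and the replicate block (1.44), and leaving out a library gave 1.24 to 1.91. Tspan15 changed sign with edgeR (-0.0079) and DESeq2 (-0.010) and ranged from -0.17 to 0.16 when a library was left out. Dpp4 ranged from -0.16 to 0.98 and the difference of Thy1 minus Prg4 from -0.32 to 0.058. The other 8 markers kept their direction in all alternatives. Same-numbered libraries had correlations of -0.23 to 0.21, with 1 of 4 over 0.1 and 2 of 8 libraries correlating best with their own number, so the numbers were not taken as pairs. With the replicate block 2018 genes were called, and the markers called stayed at 1.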

Other observations

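Fap and Dpp4, which encode related peptidases, are neighbours on chromosome 2 of mm10, both on the minus strand. Dpp4 spans 62330073 to 62412231 and Fap 62500943 to 62574075, with 88.7 kb between them. These neighbours were looked at after the values of Fap had been seen. Fap rose by 1.58 ± 0.36 (SE, limma adjusted p = 0.0149), while Dpp4 differed by 0.64 ± 0.70 (0.537). Of the other protein-coding genes within 200 kb of the pair, Gcg, which lies between them, was not analysed here. Ifih1, next to Fap, had 80.6 ± 24.4 and 87.2 ± 14.6 normalised reads (SD, n = 4) and a log2 difference of 0.15 ± 0.24 (limma adjusted p = 0.684). Gca (-0.54 ± 0.24, adjusted p = 0.135), Kcnh7 (-1.02 ± 0.46, 0.129) and Slc4a10 (-0.29 ± 0.53, 0.723) were not called by limma. Differences between the neighbours were not tested.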
